A study of Mus musculus with 9 samples.

Results

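Expression of 10 p53 target genes, Mdm2, Cdkn1a, Ccng1, Trp53inp1, Sesn1, Sesn2, Bbc3, Bax, Phlda3 and Zmat3, was examined in cultured mouse cardiosphere-derived cells (CDCs). The genes were taken by symbol from a table of 54532 genes, and all 10 were found in it. They were chosen by name as p53 targets with earlier results of the same counts and FPKM values known, so the differences of these genes between groups are given as a description. How many of them passed the threshold applied to all genes is stated for orientation, and nothing is read from it. RNA sequencing gave 9 libraries, 3 in each of 3 groups, all from cells of C57BL/6 mice. The pECDC group held untreated primary cells, labelled as grown out of pieces of heart ventricle, whose passage the labels give only as P0 in the sample names. The iECDC group held untreated cells at passage 30 that had been immortalized by lentiviral transfer of hTERT, which encodes the telomerase enzyme of human cells, from a plasmid with a CMV promoter, and selected with puromycin. The SB431542 group was labelled as such immortalized cells at passage 30 that received SB431542 for 3 days, a compound that blocks signalling by the type I TGF-β receptor. The methods of the study instead name an epithelial clone of pECDCs as the SB431542-treated cells that were sequenced, without saying which libraries hold it. The study places the growth of such clones at a later time than the labels give for the treatment. The effects of the compound, its duration and the cell source therefore cannot be told apart in any comparison with these libraries. The methods speak of biological replicates, but of fewer per condition than the 3 libraries labelled here. A figure legend on the sequencing of pECDCs and iECDCs gives n = 3. Separate cultures are not stated in the labels, so the p-values below measure only the spread between these libraries, which may be technical.

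p53 is a transcription factor that is stabilized when DNA is damaged or the cell is otherwise stressed. Mdm2, itself a p53 target, is the ubiquitin ligase that returns p53 to a low level. The other targets carry out the response: Cdkn1a encodes the cyclin-dependent kinase inhibitor p21, Bax and Bbc3 (PUMA) promote apoptosis, and the sestrins restrain growth signalling through mTORC1. Fibroblast-like cells in culture transcribe many of these genes without an added damaging agent.

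Total counts per library ranged from 16568306 to 23951392. Replicate 3 of the iECDC group and replicate 2 of the SB431542 group stood apart from the other libraries of their groups. Between the other 2 libraries of each of these groups the chi-square statistic of the counts per degree of freedom was 4.61 and 3.79, and with the library that stood apart it was 24.9 to 30.8 and 70.3 to 71.5. In pECDC libraries it was 2.7 to 4.23, so that no pair was one library deposited again. Counts of changed genes, and the calls of named genes that these libraries decide, are given with and without them. The 3 markers of cardiosphere-derived cells (Eng, Thy1 and Ly6a) were above 3 counts in at least 1 library each, with a summed level of 193 to 196 FPKM in pECDC, 210 to 241 in iECDC and 227 to 238 in SB431542 libraries. Epcam, Cdh1 and Krt8, 3 of 4 epithelial markers, were at or under 3 counts in every library, including the SB431542 libraries. The 4 epicardial markers (Wt1, Tcf21, Tbx18 and Upk3b) summed to 20.1 to 21 FPKM in pECDC, 19.4 to 25.7 in iECDC and 25.7 to 44.9 in SB431542 libraries. Among them Upk3b had 4, 8 and 9 counts in iECDC and 72, 97 and 87 in SB431542 libraries, and Wt1 had 2, 2 and 0 against 43, 14 and 39. At most 3 counts in every library were also found for Pecam1 and Tek, 2 of 4 endothelial markers, for Myh6 and Actc1, 2 of 4 cardiomyocyte markers, and for Itgam, 1 of 5 haematopoietic markers, whereas Csf1r of the same list had 260 to 679 counts in every library and Lyz2 had 14 to 16 counts in pECDC, 57 to 77 in iECDC and 25 to 45 in SB431542 libraries. The 4 smooth muscle markers (Acta2, Myh11, Tagln and Cnn1) summed to 721 to 744 FPKM in pECDC, 817 to 1920 in iECDC and 139 to 331 in SB431542 libraries, and the part of these marker differences in the results below was not tested. Of the 8 TGF-β response genes, which check the labelled treatment, 6 fell and 1 rose in SB431542 libraries against iECDC libraries. Pmepa1, a feedback inhibitor of TGF-β signalling, had 2.54, 5.27 and 2.32 FPKM in the SB431542 libraries and 64.1, 66.4 and 70.5 FPKM in the iECDC libraries, and Ltbp2, a latent TGF-β binding protein, had 1, 78 and 1 counts against 374, 293 and 777. Tgfbi, by contrast, was higher in the SB431542 libraries by 3.53 ± 0.562 on the log2 scale. The second SB431542 library thus kept a higher level of Pmepa1 and Ltbp2 than the other two.

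The windows before the RefSeq transcription start sites of the members (build GRCm38.p6) were searched for the p53 decamer, the 10-base sequence of which a full p53 response element holds a pair. The decamer consensus reads the same on both strands. A pair was counted when 2 decamers with intact 4-base centres, at most 1 base apart, differed from the consensus at 3 positions or fewer in all. Windows of 300 bases (250 before the start and 50 after it) were available for 8 members, with 12 windows in all, and Trp53inp1 and Zmat3 had none. A full decamer was found in 5 of the 12 windows (41.7%), against 8.36% of all 32851 windows. A pair was found in 3 of the 12 (25%), against 1.06% of all windows. Of the 57 windows of the other p53 targets listed below, 17.5% held a decamer and 12.3% a pair. The windows of Sesn2 and Phlda3 held neither. Such a match describes the sequence and does not show that p53 binds there.

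The 6 windows with a match are printed, and windows without a match are not, including other windows of Cdkn1a, Sesn1 and Bbc3. Those printed belong to the members that differed most (Mdm2, Cdkn1a and Ccng1, lower in SB431542 libraries, and Sesn1, higher) and to the apoptosis genes Bax and Bbc3. Only the 250 bases before each start are shown, 5′ to 3′ on the strand of the gene, and capitals mark decamers and pairs. Positions are counted back from -1, the base before the start. The Cdkn1a window (chr17:29090729-29090978, plus strand) lies before the upstream of 2 starts, its last 3 bases are exonic in GENCODE M21, and it holds a decamer at -73 and a pair from -51 to -32 with 1 mismatch. The Bax window (chr7:45466899-45467148, minus strand) lies before the gene, within the span of Gm45808, and holds a pair from -201 to -181 with 2 mismatches and a 1-base spacer. The Bbc3 window (chr7:16309333-16309582, plus strand) lies before the first of 3 starts, within an intron of the longer annotated gene, and holds a pair from -97 to -78 with 3 mismatches. The Mdm2 window (chr10:117710759-117711008, minus strand) is intergenic and holds 1 decamer, starting at -186. As background, the best-known p53 elements of Mdm2 lie in its first intron, outside this window. The Ccng1 window (chr11:40755287-40755536, minus strand), of which 25 bases are in the annotated first exon, holds a decamer starting at -185, and the Sesn1 window (chr10:41887189-41887438, plus strand), before the second of 2 starts and within an intron of the longer transcript, holds a decamer starting at -173.
Cdkn1a: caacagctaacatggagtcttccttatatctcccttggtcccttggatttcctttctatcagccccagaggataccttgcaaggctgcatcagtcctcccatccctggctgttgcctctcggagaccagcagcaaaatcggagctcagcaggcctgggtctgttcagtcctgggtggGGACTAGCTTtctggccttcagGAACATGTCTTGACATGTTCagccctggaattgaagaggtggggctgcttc
Bax: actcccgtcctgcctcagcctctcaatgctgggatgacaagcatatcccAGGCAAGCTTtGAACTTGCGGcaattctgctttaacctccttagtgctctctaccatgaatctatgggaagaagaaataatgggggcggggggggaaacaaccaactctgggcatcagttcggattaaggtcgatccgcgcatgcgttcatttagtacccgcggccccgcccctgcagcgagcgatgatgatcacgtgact
Bbc3: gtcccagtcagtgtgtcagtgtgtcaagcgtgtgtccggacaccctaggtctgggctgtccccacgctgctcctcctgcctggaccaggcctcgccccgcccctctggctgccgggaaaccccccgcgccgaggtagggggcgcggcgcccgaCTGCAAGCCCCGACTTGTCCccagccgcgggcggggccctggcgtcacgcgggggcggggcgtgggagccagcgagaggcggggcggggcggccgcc
Mdm2: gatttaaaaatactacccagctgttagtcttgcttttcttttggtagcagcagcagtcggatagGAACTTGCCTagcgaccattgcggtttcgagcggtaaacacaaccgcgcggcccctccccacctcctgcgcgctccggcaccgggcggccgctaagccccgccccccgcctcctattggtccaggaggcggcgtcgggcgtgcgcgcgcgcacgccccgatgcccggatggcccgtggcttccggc
Ccng1: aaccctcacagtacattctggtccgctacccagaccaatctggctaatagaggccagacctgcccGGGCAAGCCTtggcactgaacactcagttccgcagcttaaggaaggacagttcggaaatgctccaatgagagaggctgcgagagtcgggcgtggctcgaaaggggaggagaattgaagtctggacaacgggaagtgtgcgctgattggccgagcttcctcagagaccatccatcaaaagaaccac
Sesn1: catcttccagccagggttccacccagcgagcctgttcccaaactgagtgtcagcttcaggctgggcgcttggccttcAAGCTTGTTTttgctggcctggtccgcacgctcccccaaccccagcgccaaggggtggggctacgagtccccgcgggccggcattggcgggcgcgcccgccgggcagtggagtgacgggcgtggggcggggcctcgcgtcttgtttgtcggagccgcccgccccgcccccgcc

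Levels of the members were compared as FPKM, a count divided by gene length and by the depth of the library. In pECDC libraries the order from high to low was Phlda3 (140 FPKM ± 1.49, SD, n = 3), Ccng1 (133 ± 3.08), Cdkn1a (128 ± 3.4), Bax (97.1 ± 0.4), Mdm2 (42.9 ± 1.65), Zmat3 (13.1 ± 0.191), Sesn2 (12.4 ± 0.407), Bbc3 (8.23 ± 0.656), Trp53inp1 (5.75 ± 0.0421) and Sesn1 (2.46 ± 0.177). Ccng1 and Cdkn1a, neighbours in this order, overlapped between libraries, and no other neighbours did. The order was the same in iECDC libraries, except that Sesn2 and Zmat3 changed places, and 3 pairs of neighbours overlapped there (Phlda3 with Ccng1, Ccng1 with Cdkn1a, and Sesn2 with Zmat3). In SB431542 libraries Bax (79.2 ± 19.3) stood above Ccng1 (71.6 ± 23.7) and Cdkn1a (63.1 ± 18.1), and all 4 of the highest members overlapped with their neighbours among the 4, as did Zmat3, Sesn2 and Bbc3. Phlda3 was above 97.6% of the genes tested in pECDC libraries and Sesn1 above 33.2%. Counts of the members ranged from 116, for Sesn1, to 11724, so all 10 passed the filter on low counts in every comparison. The members lie on 7 chromosomes, and only Bax and Bbc3 (chromosome 7), Mdm2 and Sesn1 (chromosome 10) and Trp53inp1 and Sesn2 (chromosome 4) share one. Annotated genes overlap 4 of them, of which AC167363.2, on the strand opposite to Cdkn1a, had 16 to 62 counts, and those overlapping Sesn1, Sesn2 and Bax had 0 to 9. The setting for strand in the counting is not given in the sources used here, so reads of overlapping genes cannot be told apart.

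**Figure D1:**
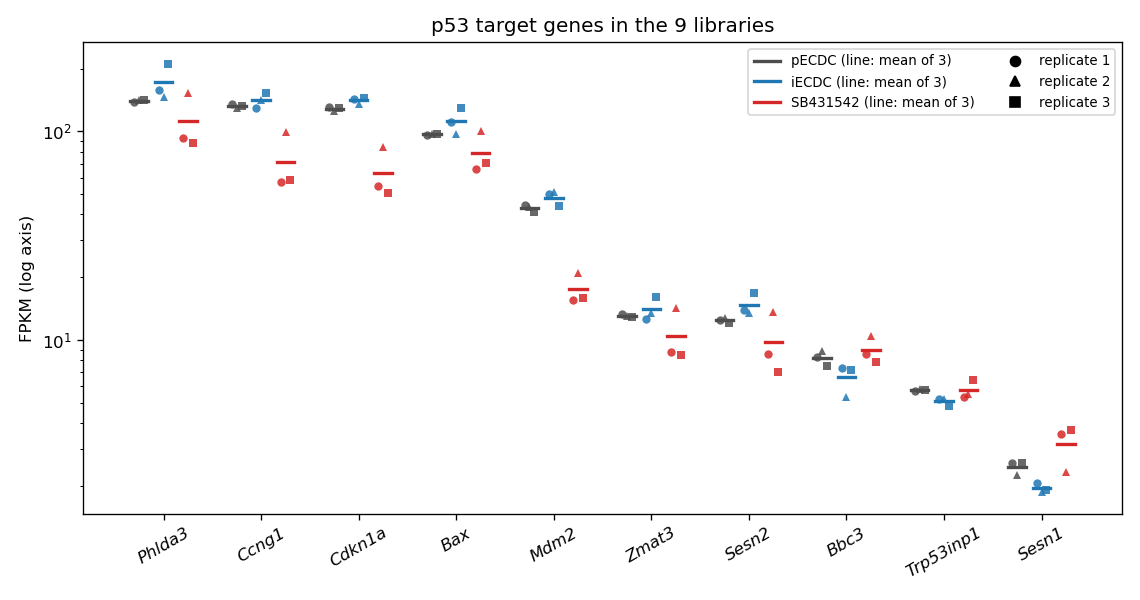
FPKM (log axis) of each member in each of the 9 libraries, coloured by group, with the marker shape giving the replicate number and the line the mean of 3 libraries. The SB431542 points of Mdm2, Cdkn1a and Ccng1 lie below those of the other groups, and replicate 2 of this group is the highest of its 3 libraries for 8 of the 10 genes.

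The first comparison asked how the p53 targets of immortalized cells differ from those of primary cells. None of the 10 members passed the threshold of edgeR's quasi-likelihood test (adjusted p under 0.05), and DESeq2 gave the same count, while 5 had an unadjusted p under 0.05. Of all 13752 genes tested, 16.4% passed the threshold, and 4333 had an unadjusted p under 0.05. The libraries of the 2 groups did not overlap for 7 members, 4 higher (Cdkn1a, Sesn2, Bax and Phlda3) and 3 lower (Trp53inp1, Sesn1 and Bbc3) in iECDC libraries, against 39.9% of all genes (20.7% higher and 19.2% lower). The log2 fold changes ran from -0.36 to 0.28, with a median of 0.10 beside 0.00 for all genes tested.

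Mdm2 had 44.3, 43.3 and 41.1 FPKM in pECDC libraries and 49.9, 51.0 and 43.8 in iECDC libraries, a log2 fold change of 0.16 ± 0.0749 (SE). Its ranges overlapped because of the third iECDC library. Cdkn1a had 131, 125 and 129 FPKM against 143, 135 and 144, a log2 fold change of 0.12 ± 0.0621, with every iECDC library above every pECDC library. Ccng1, which encodes cyclin G1, had 136, 130 and 132 FPKM in pECDC libraries and 130, 142 and 153 in iECDC libraries, and its ranges overlapped. Phlda3, an inhibitor of Akt signalling, had 139, 141 and 141 FPKM against 158, 147 and 211, the last value being that of the library that stood apart. Its log2 fold change was 0.28 ± 0.118 with that library and 0.11 ± 0.0420 without it. Bax, the pore-forming member of the BCL2 family, had 96.6, 97.2 and 97.4 FPKM against 111, 97.7 and 129, with a log2 fold change of 0.20 ± 0.0937, and 0.09 ± 0.0498 without the third iECDC library. Sesn2 had 12.5, 12.7 and 12 FPKM in pECDC libraries and 13.9, 13.4 and 16.8 in iECDC libraries, again highest in the library that stood apart, without which the log2 fold change was 0.13 ± 0.0570. Sesn1 went the other way, with 2.57, 2.26 and 2.56 FPKM in pECDC libraries and 2.05, 1.86 and 1.9 in iECDC libraries, a log2 fold change of -0.36 ± 0.113. Bbc3 had 8.31, 8.85 and 7.54 FPKM against 7.35, 5.3 and 7.2, and Trp53inp1, which acts in autophagy and apoptosis, had 5.71, 5.8 and 5.75 against 5.23, 5.2 and 4.81. Both were lower in every iECDC library. Zmat3, an RNA-binding protein, had 13.3, 13.1 and 12.9 FPKM against 12.6, 13.5 and 16.1, with overlap. Without the third iECDC library 4 members passed the threshold, Mdm2 (0.22 ± 0.0429) and Phlda3 higher and Sesn1 (-0.34 ± 0.118) and Bbc3 (-0.37 ± 0.119) lower. Of all 14095 genes tested in that fit, 4467 passed it.

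The second comparison set the SB431542 libraries against the iECDC libraries, the cells from which the labels derive them. Of the members, 4 passed the threshold, 3 lower (Mdm2, Cdkn1a and Ccng1) and 1 higher (Sesn1). Of all 13559 genes tested, 30.0% passed it, 14.0% lower and 16.0% higher. The libraries did not overlap for 6 members, the 3 lower ones and, higher, Sesn1, Bbc3 and Trp53inp1, against 46.5% of all genes (23.5% lower and 23.0% higher). The median log2 fold change of the members was -0.54, beside 0.00 for all genes, with 7 values below 0 and 3 above it. These counts describe genes listed with such results known and support nothing about p53 targets as a class.

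Mdm2 had 15.5, 20.9 and 15.9 FPKM in the SB431542 libraries, so that each was below the lowest iECDC value of 43.8 FPKM. Its level was 2.74-fold lower, a log2 fold change of -1.45 ± 0.144, and -1.61 ± 0.106 without the second SB431542 library. Cdkn1a had 55.0, 83.8 and 50.4 FPKM against 143, 135 and 144, which was 2.22-fold lower, with a log2 fold change of -1.15 ± 0.190. Without the second SB431542 library, the highest of the 3, the log2 fold change of Cdkn1a was -1.41 ± 0.0983. Ccng1 had 57.3, 98.9 and 58.6 FPKM against 130, 142 and 153, a log2 fold change of -0.97 ± 0.213, and -1.28 ± 0.103 without the second SB431542 library. For these 3 genes every SB431542 library was below every iECDC library, and in all 3 the second library lay nearest to the iECDC group. Mdm2 and Cdkn1a stayed past the threshold whichever library was left out, whereas Ccng1 lost it without SB431542 replicate 1 or 3 or without iECDC replicate 2.

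The apoptosis genes and the remaining effectors were divided. Bax had 65.8, 101 and 70.5 FPKM in the SB431542 libraries against 111, 97.7 and 129, and Phlda3 had 93.4, 153 and 88.2 against 158, 147 and 211. In both genes the second SB431542 library lay within the iECDC range while the other two lay below it. Zmat3, with 8.79, 14.2 and 8.48 FPKM against 12.6, 13.5 and 16.1, showed the same arrangement. So did Sesn2, an inhibitor of mTORC1 signalling, with 8.6, 13.6 and 7.02 FPKM against 13.9, 13.4 and 16.8. The log2 fold changes were -0.49 ± 0.181 for Bax, -0.61 ± 0.230 for Phlda3, -0.41 ± 0.205 for Zmat3 and -0.58 ± 0.227 for Sesn2, and none passed the threshold. Without the second SB431542 library all 4 did, at -0.71 ± 0.125, -0.91 ± 0.150, -0.69 ± 0.117 and -0.90 ± 0.134, and 8 of the 10 members were then past it. Of all 13955 genes tested in that fit, 7001 were past it.
Bbc3 had 8.59, 10.5 and 7.82 FPKM in the SB431542 libraries against 7.35, 5.3 and 7.2, a log2 fold change of 0.45 ± 0.176 that did not pass the threshold, although the libraries did not overlap. Trp53inp1 had 5.34, 5.52 and 6.4 FPKM against 5.23, 5.2 and 4.81, a log2 fold change of 0.19 ± 0.114. Sesn1 had 3.55, 2.32 and 3.68 FPKM against 2.05, 1.86 and 1.9, a log2 fold change of 0.72 ± 0.204. The 2 sestrins thus lay on opposite sides of 0 in these libraries. Sesn1 rested on 116 to 265 counts in these 6 libraries, and it stayed past the threshold when SB431542 replicate 2 was left out (0.91 ± 0.138) but lost it when any other single library was left out.

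**Figure D2:**
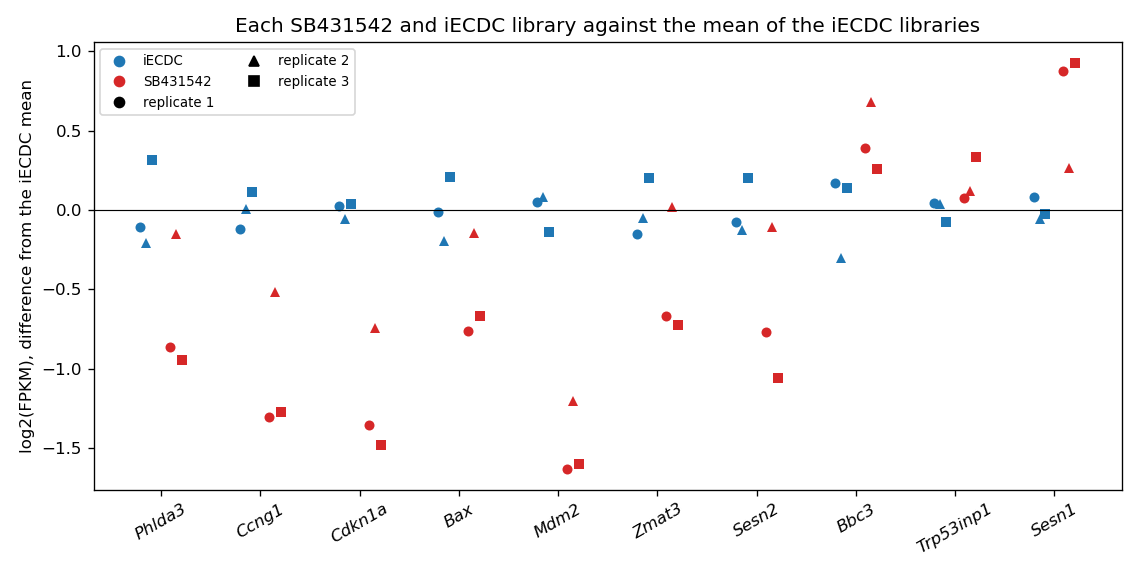
Difference of each iECDC and SB431542 library from the mean of the 3 iECDC libraries, on the log2(FPKM) scale, for each member. Replicates 1 and 3 of the SB431542 group lie close together, and replicate 2 lies nearer to 0 than both for Mdm2, Cdkn1a, Ccng1, Bax, Phlda3, Zmat3, Sesn2 and Sesn1.

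The third comparison set the SB431542 libraries against the pECDC libraries, the cells that the methods name as the source of an SB431542-treated clone. It shares libraries with both comparisons above, so its values are given side by side with theirs and not as a repeat. Mdm2 was 2.44-fold lower (log2 fold change -1.29 ± 0.120), Cdkn1a 2.02-fold lower (-1.02 ± 0.182) and Ccng1 1.84-fold lower (-0.88 ± 0.205) than in pECDC libraries. These 3 members passed the threshold, and for these 3 the libraries did not overlap. Of all 14015 genes tested 34.8% passed it, 17.0% lower and 17.9% higher, and 51.5% did not overlap (26.4% lower and 25.1% higher). The other members had log2 fold changes from -0.34 (Sesn2) to 0.38 (Sesn1) and overlapping libraries, and the median over the 10 was -0.32 beside 0.01 for all genes. Trp53inp1, at 5.75 FPKM in the mean of both groups, had a log2 fold change of 0.01 ± 0.0896. Without the second SB431542 library 8 members passed the threshold, 7 lower and Sesn1 higher, beside 9188 of all 14345 genes tested in that fit. Ccng1 was then at -1.19 ± 0.0451, whereas without any other single library Ccng1 did not pass the threshold.

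**Figure D3:**
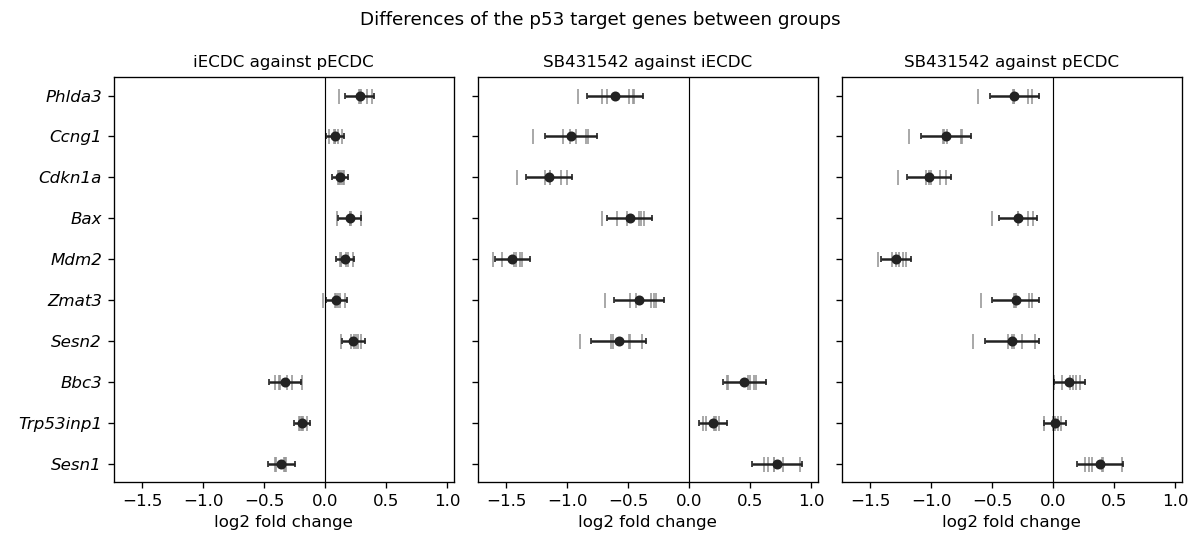
Log2 fold change of each member in each comparison (point) with its standard error (bar), and the values with each single library left out as grey ticks. Mdm2, Cdkn1a and Ccng1 lie near 0 between iECDC and pECDC libraries and at -0.88 or below in both comparisons with SB431542 libraries.

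Cdkn1a is also a member of the CIP/KIP family of kinase inhibitors. Its relative Cdkn1b, which encodes p27, had 14.4, 15.6 and 12.8 FPKM in iECDC libraries and 26.8, 18.4 and 26.6 in SB431542 libraries, a rise of 0.76 ± 0.164 on the log2 scale (adjusted p = 0.01217), and of 0.91 ± 0.103 without the second SB431542 library. The pECDC libraries had 20.7, 21.1 and 20.2 FPKM. Against them Cdkn1b was at 0.22 ± 0.146 with overlap and did not pass the threshold, whereas it passed at 0.38 ± 0.0431 without the second SB431542 library.

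The levels most like those of Mdm2 across the 9 libraries, among 6844 protein-coding genes with a mean of at least 5 FPKM, were those of Skil (Pearson r = 0.995), Fhl2 (0.9942) and Fermt2 (0.9937). Skil had 9.14, 9.13 and 8.72 FPKM in pECDC, 9.31, 10.3 and 9.02 in iECDC and 1.92, 2.79 and 1.73 in SB431542 libraries. For Cdkn1a they were Tnfrsf10b (0.9947), Mlf2 (0.9947) and Ywhag (0.9944). Tnfrsf10b, itself a p53 target that encodes a death receptor, had 13.9, 13 and 12.8 FPKM in pECDC, 14.9, 14.9 and 14.4 in iECDC and 5.55, 8.7 and 5.64 in SB431542 libraries. These coefficients compare 9 libraries that fall into a low SB431542 group and a high group, and they are given as a description.

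A list of 50 other p53 target genes was tested in the same fits, and 47 of them passed the filter on low counts (Perp, Sco2 and Spata18 did not). Between iECDC and pECDC libraries 6 of the 47 (12.8%) changed, beside 16.4% of all genes. Plk3, a stress-activated kinase, rose by 0.69 ± 0.102 on the log2 scale (adjusted p = 0.002525), and Pmaip1, which encodes the apoptosis promoter NOXA, and Ei24 rose by 0.33 ± 0.0760 and 0.32 ± 0.0934. Gadd45a, a growth arrest gene, had 5.85, 6.61 and 6.46 FPKM in pECDC libraries and 2.72, 2.93 and 1.77 in iECDC libraries, a log2 fold change of -1.35 ± 0.173 (adjusted p = 0.001131). Tap1 and Apaf1 fell by 0.41 ± 0.113 and 0.24 ± 0.0604. Without the third iECDC library 22 of the 47 passed, 15 higher and 7 lower, and 2 passed without any 1 of the pECDC libraries. Of all 14095 genes tested without the third iECDC library, 4467 passed. Without pECDC replicate 1, 2 or 3, 1056 of 13981, 1036 of 14024 and 1065 of 13956 genes passed, beside 2258 with all libraries of the 2 groups.

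In SB431542 libraries against iECDC libraries 18 of the 47 other targets (38.3%) changed, 16 lower and 2 higher, beside 30.0% of all genes, and the median log2 fold change was -0.27 beside 0.00. Pmaip1 had 1.03, 2.77 and 1.38 FPKM in the SB431542 libraries and 9.21, 8.81 and 8.71 in the iECDC libraries, and it was 5.07-fold lower (log2 fold change -2.34 ± 0.315, adjusted p = 0.002127). Plk2, a kinase of the centriole cycle, had 13.1, 45.6 and 14 FPKM against 90.2, 89.3 and 69.6 (log2 fold change -1.77 ± 0.451, adjusted p = 0.02184), with the second SB431542 library far above the other two. Ddit4, an inhibitor of mTORC1, had 22.4, 26.4 and 25.4 FPKM against 98.5, 86.8 and 63.6 (log2 fold change -1.74 ± 0.170, adjusted p = 0.0008174). Plk3 fell by 1.29 ± 0.196 and Polk, a translesion DNA polymerase, by 1.16 ± 0.135 on the log2 scale. Gadd45a had 10.5, 4.85 and 12.4 FPKM against 2.72, 2.93 and 1.77, so that this target rose while most that changed fell (log2 fold change 1.90 ± 0.359, adjusted p = 0.007718). Xpc, a damage sensor of nucleotide excision repair, also rose, by 0.42 ± 0.119. Plk2 lost the threshold without either SB431542 replicate 1 (-1.47 ± 0.438) or 3 (-1.49 ± 0.448) and without iECDC replicate 1 (-1.71 ± 0.526) or 2 (-1.72 ± 0.519), as did Xpc. Leaving out single libraries gave 9 to 27 changed genes, with 27 without the second SB431542 library and 9, 10, 10 and 11 without SB431542 replicate 3, SB431542 replicate 1, iECDC replicate 1 and iECDC replicate 2. Of all 13955 genes tested without the second SB431542 library, 7001 passed. Without SB431542 replicate 3, SB431542 replicate 1, iECDC replicate 1 and iECDC replicate 2, 1886, 1765, 1707 and 1788 of all genes passed.

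**Figure D4:**
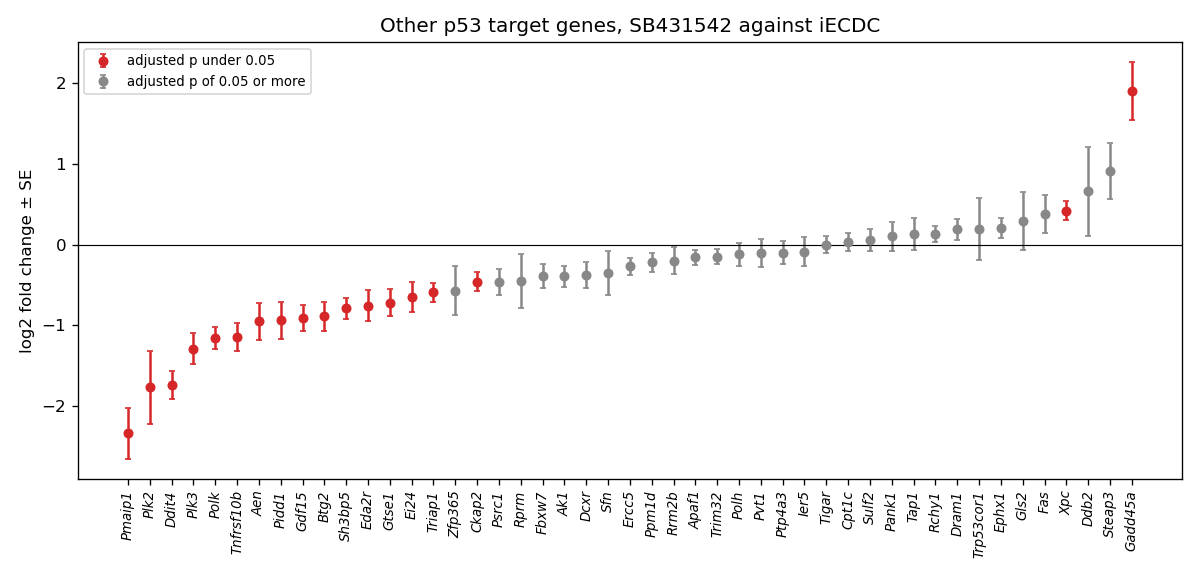
Log2 fold change ± SE of the 47 other p53 target genes tested between SB431542 and iECDC libraries, ordered by value, with genes past the threshold in red. The 16 genes that fell reach -2.34 (Pmaip1), and Gadd45a stands highest at 1.90.

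Against pECDC libraries 23 of the 47 other targets (48.9%) changed, 20 lower and 3 higher, beside 34.8% of all genes. Ddit4 had 113, 110 and 114 FPKM in pECDC libraries, 4.52-fold above the SB431542 libraries (log2 fold change -2.17 ± 0.0802, adjusted p = 2.508e-05). Pmaip1, Plk2, Polk and Tnfrsf10b followed at -2.00 ± 0.313, -1.71 ± 0.464, -1.29 ± 0.1 and -0.99 ± 0.171. Xpc, Ephx1, an epoxide hydrolase, and Dram1, an autophagy gene, rose by 0.51 ± 0.0811, 0.39 ± 0.0900 and 0.31 ± 0.0843. Gadd45a passed the threshold in this comparison without SB431542 replicate 2 (0.87 ± 0.0979) but not with it (0.56 ± 0.314). The count was 13 to 14 without any single library other than SB431542 replicate 2, and 35 without that one. Of all 14345 genes tested without SB431542 replicate 2, 9188 passed. Without any other single library 2453 to 3390 of all genes passed, beside 4881 with all libraries of the groups compared.

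Upstream of the targets, Trp53, which encodes p53, had 38.4, 36.4 and 37.1 FPKM in pECDC, 44.3, 38.5 and 50.1 in iECDC and 33, 41.9 and 32.4 in SB431542 libraries. It passed the threshold in none of the 3 comparisons, with log2 fold changes of 0.24 ± 0.0910, -0.30 ± 0.144 and -0.05 ± 0.106. Without the second SB431542 library it did pass, lower than in iECDC (-0.43 ± 0.118) and pECDC libraries (-0.18 ± 0.0443). Mdm4, the relative of Mdm2 that holds p53 inactive, had 4.37, 4.25 and 4.11 FPKM in pECDC, 3.9, 3.55 and 3.14 in iECDC and 5, 3.77 and 5.58 in SB431542 libraries and did not pass it either. Without the second SB431542 library Mdm4 passed, higher by 0.59 ± 0.112 than in iECDC and by 0.33 ± 0.0556 than in pECDC libraries, and without the third iECDC library it passed as lower in iECDC than in pECDC libraries (-0.20 ± 0.0584). Cdkn2a, whose products p16 and ARF restrain cyclin-dependent kinases and Mdm2, had 550, 407 and 562 counts in pECDC libraries and 0, 1 and 0 in iECDC libraries, and fell. No SB431542 library had a count for it. Reads of the 2 products were not separated here. Of 18 regulators, 16 could be tested between iECDC and pECDC libraries and 2 changed, both lower, Cdkn2a and Trp53bp1 (-0.24 ± 0.0669). Between SB431542 and iECDC libraries 2 of 15 rose, the p53 coactivators Ep300 (0.45 ± 0.102) and Crebbp (0.35 ± 0.101), and Crebbp did not pass with DESeq2. Against pECDC libraries 4 of 16 changed, with Trim24 (0.48 ± 0.111), Crebbp (0.30 ± 0.0647) and Ep300 higher and Cdkn2a lower. The shares were 12.5%, 13.3% and 25.0%, beside 16.4%, 30.0% and 34.8% of all genes. Leaving out single libraries gave 1 to 5, 0 to 6 and 1 to 9 regulators, with the highest counts without iECDC replicate 3 in the first comparison and without SB431542 replicate 2 in the others. The count of all genes past the threshold was also highest without these libraries. At the level of mRNA these values do not measure the amount or activity of the p53 protein.

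The BCL2 family, to which Bax and Bbc3 belong, was tested through 13 further members, of which 10 passed the filter on low counts. Bmf, a BH3-only promoter of apoptosis like Bbc3, had 1.29, 1.16 and 1.2 FPKM in pECDC, 0.764, 0.556 and 0.471 in iECDC and 4.42, 2.17 and 4.74 in SB431542 libraries. It fell by 1.02 ± 0.184 on the log2 scale between iECDC and pECDC libraries and rose by 2.66 ± 0.334 in SB431542 libraries against iECDC libraries (adjusted p = 0.006398 and 0.001757). Without iECDC replicate 3 the first value was -0.87 ± 0.164, and without SB431542 replicate 2 the second was 2.93 ± 0.191. Bcl2l11 (BIM) also rose in SB431542 libraries, by 0.90 ± 0.121 against iECDC and 0.78 ± 0.0950 against pECDC libraries. Bok, which is close to Bax in sequence, rose by 0.53 ± 0.111 in iECDC libraries, a rise that did not pass without any 1 of the pECDC libraries. It had 37.8, 39.3 and 38.5 FPKM in pECDC and 53.1, 48.3 and 67.6 in iECDC libraries, the last in the library that stood apart. In SB431542 against iECDC libraries Bok fell by 0.55 ± 0.149, a fall that lost the threshold without SB431542 replicate 1 or 3 or iECDC replicate 1 or 3. In all, 2 of 10 changed between iECDC and pECDC libraries (beside 16.4% of all genes), 3 of 10 between SB431542 and iECDC libraries (beside 30.0%) and 3 of 10 between SB431542 and pECDC libraries (beside 34.8%), the third of these being Bcl2 (-0.54 ± 0.117). Leaving out single libraries gave 1 to 4, 2 to 6 and 2 to 6 genes, again highest without iECDC replicate 3 and SB431542 replicate 2, as was the count of all genes.

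Among 10 paralogues of the members, 8 could be tested (Mdm4, Bak1 and Bok are also in the lists above). In iECDC against pECDC libraries 5 of 8 changed, with Sesn3 (-0.83 ± 0.0882), Ccng2 (-0.59 ± 0.0901), Cdkn1b (-0.55 ± 0.0796) and Trp53inp2 lower and Bok higher. In SB431542 against iECDC libraries Ccng2 (1.24 ± 0.138), Sesn3 (1.23 ± 0.173) and Cdkn1b rose, and Phlda1 and Bok fell. Cyclin G2 thus rose (4.65, 3.91 and 3.84 FPKM in iECDC and 10.2, 8.3 and 10.5 in SB431542 libraries) where cyclin G1, the member, was lower. Ccng2 was the 1 paralogue of 8 that changed against pECDC libraries (0.66 ± 0.106). The shares were 62.5%, 62.5% and 12.5%, beside 16.4%, 30.0% and 34.8% of all genes. Leaving out single libraries gave 3 to 8, 2 to 8 and 1 to 6 paralogues, highest without the same 2 libraries, as was the count of all genes.

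Cell cycle genes that p53 is known to repress through p21 were listed as a further readout, and all 16 were tested. Between iECDC and pECDC libraries 7 rose and none fell, led by Mybl2 (0.52 ± 0.141) and Mcm5 (0.48 ± 0.0933), but only 0 or 1 passed without any 1 of the pECDC libraries. In those fits 1036 to 1065 of all genes passed, beside 2258 with all libraries of these groups. Between SB431542 and iECDC libraries, where Cdkn1a was lower, 3 fell and none rose: Aurka (-0.72 ± 0.185), Cdk1 (-0.61 ± 0.196) and Plk1. Cdk1 had 21.7, 37.3 and 23.7 FPKM in SB431542 libraries against 42.4, 40.5 and 44.3, and none of the 16 passed without any single library other than SB431542 replicate 2, whereas 8 fell without that one. Against pECDC libraries 3 rose, E2f1 (0.46 ± 0.0762), Foxm1 (0.44 ± 0.121) and Mki67, and 6 rose and 8 fell without SB431542 replicate 2. The shares were 43.8%, 18.8% and 18.8%, beside 16.4%, 30.0% and 34.8% of all genes. Without SB431542 replicate 2, 7001 of 13955 genes passed against iECDC and 9188 of 14345 against pECDC libraries. Without any other single library 1707 to 3559 of all genes passed against iECDC libraries, beside 4061 with all libraries of these groups.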

How the data were processed

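RNA of the 9 libraries was sequenced as described in the labels. The processing notes of the submitters name TopHat2 2.0.9, Bowtie2 2.0.6 and the mm9 build, without saying which step made which column, whereas the coordinates in the table equal those of GENCODE M21 (GRCm38) for 53499 of its 54532 genes and for all 10 members. The counting program is not given in the sources used here. The authors deposited counts of reads for each gene, not normalized, together with FPKM values, which are the count divided by gene length and a constant of the library within 0.1% for all but 1 of 179215 values. The gene lengths deposited by the authors in the same table were not used as a measurement. Log2 fold changes, p-values and group means of the authors' own DESeq comparisons are also in the table and were not used.

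Libraries were grouped by their labels. Tests on the counts used edgeR 4.0.16 under R 4.3.3 (TMM, filterByExpr with a minimum count of 10 and total of 15, quasi-likelihood test, Benjamini-Hochberg adjustment over all genes tested, threshold 0.05), with only the libraries of the 2 groups compared in each fit. Values after ± are standard errors for log2 fold changes and SDs for FPKM. The standard errors were derived from the quasi-likelihood test, as the absolute log2 fold change divided by the square root of its F statistic. The members and the lists were chosen with earlier results of these data known. Named genes are the 10 members, up to 5 other targets with the largest rise and 5 with the largest fall per comparison among those past the threshold, Trp53, Mdm4 and Cdkn2a, the 3 largest changes past the threshold in the regulator, BCL2 and paralogue lists, the 2 largest in each direction in the cell cycle and TGF-β lists, and the 3 genes most like Mdm2 or Cdkn1a. Further genes named to complete a count (Trp53inp2, Phlda1, Plk1 and Mki67) were chosen after their values were seen. The values of 1 TGF-β response gene are not reported here. Likeness was Pearson's r of log2(FPKM + 1). Promoter sequences are from RefSeq (GRCm38.p6).

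Alternatives were DESeq2 1.42.0, RLE and upper-quartile scaling, other filters on low counts, all 9 libraries in the fit, a replicate block, leaving out each library, limma 3.58.1 on log2(FPKM + 1) or log2(FPKM + 0.1), and a log2 fold change of at least 1. Leaving out both libraries that stood apart was added after seeing the data. The scripts were first tested on simulated data. Summaries were computed in python 3.11.15 with numpy 2.4.6 and pandas 2.3.3, and plots drawn in matplotlib 3.10.9.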

Additional observations from a re-analysis of the deposited data

How the results depend on the processing

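Mdm2 and Cdkn1a stayed lower and past the threshold in both comparisons with SB431542 libraries under every alternative tried. In these comparisons Mdm2 ranged from -1.67 to -1.37 against iECDC and from -1.44 to -1.21 against pECDC libraries, and Cdkn1a from -1.41 to -1.01 and from -1.27 to -0.88. Among members, only Zmat3 in iECDC against pECDC libraries (-0.02 to 0.16) and Trp53inp1 in SB431542 against pECDC libraries (-0.08 to 0.06) changed sign, and neither passed the threshold under any alternative.

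Counts of genes past the threshold moved with several choices. For iECDC against pECDC the 2258 genes became 671 (2 other targets) with all 9 libraries in the fit and 512 (1 other target) at a log2 fold change of at least 1, and leaving out single libraries gave 1036 to 4467. Without a filter on low counts 2 members and 11 other targets passed, DESeq2 gave 12 other targets, and leaving out single libraries gave 0 to 4 members and 2 to 22 other targets, with the highest values without iECDC replicate 3.
For SB431542 against iECDC the 4061 genes became 1434 (2 members and 7 other targets) at a log2 fold change of at least 1 and 8951 (9 members and 33 other targets) without both libraries that stood apart. No filter on low counts gave 7 members and all 9 libraries in the fit gave 8. Leaving out single libraries gave 1707 to 7001 genes, 2 to 8 members and 9 to 27 other targets, with the highest values without SB431542 replicate 2.
For SB431542 against pECDC the 4881 genes became 1330 (4 other targets) at a log2 fold change of at least 1, and leaving out single libraries gave 2453 to 9188 genes, 2 to 8 members and 13 to 35 other targets, again highest without SB431542 replicate 2. Leaving out a library leaves its group with 2, which by itself lowers the number of calls. The cause of the other shifts was not tested. The log2 fold changes of Mcm5 and Mybl2 in SB431542 against pECDC libraries reversed to -0.12 and -0.28 without SB431542 replicate 2, and with single libraries left out they ranged from -0.12 to 0.39 and from -0.28 to 0.21.

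With the replicate number as a block, 0, 4 and 3 members and 5, 17 and 22 other targets passed in the 3 comparisons. Deviations of same-numbered libraries had correlations of -0.207 to 0.033, and those of differently numbered libraries -0.1 to 0.19. No pairing by number was seen, but deviations from means of 3 libraries cannot exclude one. Of the values of members under all alternatives, 410 kept their direction and side of the threshold, 13 lost the threshold, 29 gained it and 8 changed sign with neither value past it. Of those of the other genes named by rule, 1502 kept both, 158 lost the threshold, 50 gained it, 16 changed sign with neither value past it, and 2 (Mcm5 and Mybl2, above) changed sign with a value past it. A total of 3 libraries per group limits what can be told apart, and Sesn1, with as few as 116 counts, was the least deeply counted member.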
